A study of Xenopus laevis with 8 samples.

Results

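The T-box genes t (brachyury), vegt and eomes were followed in cultured ectodermal explants of the frog Xenopus laevis at the early neurula stage. Members were taken by name, as every gene of the deposited count table whose symbol without its final .L or .S is t, vegt or eomes, which gave 6 of 45035 genes: t.L, t.S, vegt.L, vegt.S, eomes.L and eomes.S. The letters stand for the long and the short copy that this allotetraploid frog keeps of many genes. The explants were wild type in every group. Libraries 1 and 2 came from control explants, for which the labels name no added protein, and the other groups expressed Chordin (libraries 3 and 4), Flag-tagged Pinhead (libraries 5 and 6), or both Pinhead and Chordin (libraries 7 and 8), with 2 libraries in each of the 4 groups. The sources used here do not give how the proteins were delivered, their dose, how many explants made up a library, or whether duplicate libraries stem from separate batches of embryos. The p-values therefore measure the spread between these libraries alone, which may be technical.

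T-box proteins are transcription factors that bind DNA through a shared domain. In the frog, brachyury is switched on throughout the early mesoderm in response to FGF and Nodal-type signals, and it later persists in the notochord and the tail-forming region. VegT is first stored in the egg as a maternal RNA that starts endoderm and mesoderm formation, and is then transcribed again in the early mesoderm, while Eomes acts early in the mesendoderm. Chordin is a secreted inhibitor of bone morphogenetic proteins (BMPs) made by the dorsal organizer. Pinhead is a small secreted protein of the early embryo, and the series asks how the pair acts on dorsal mesodermal genes.

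The libraries held between 15052017 and 19677493 counts. Levels are given in CPM, a count scaled to the library size by the trimmed mean of M values (TMM), and 1 CPM stood for 14.55 to 18.98 counts. The labelled proteins were seen as their transcripts: pnhd.L stood at 1252 and 737.9 CPM in the Pinhead libraries and at 428.6 and 485.5 CPM in those with both, against at most 2.89 CPM elsewhere, and chrd.S stood at 792 CPM or more in the 4 libraries with Chordin and at 1.17 CPM or less in the others. Of 18 copies of epidermis genes 17 were detected in each library, and their summed level was 9450 to 11354 CPM without Chordin and 1251 to 2102 CPM with it. Of 13 neural copies 12 or 13 were detected, at 90.03 to 206 CPM in sum without Chordin and 3092 to 3787 CPM with it. Libraries 7 and 8 differed most within a group. In explants, fewer cells of a type and less RNA per cell cannot be told apart.

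All 4 copies of t and vegt were high with Pinhead alone and low or absent in the 3 other groups. Of the 6 members these 4 passed the filter on low counts, and all 4 rose over control with Pinhead, where 6.75% of the 23130 genes tested were called higher (quasi-likelihood test of edgeR, p under 0.05 after Benjamini-Hochberg adjustment over all genes). All 4 were also lower with both than with Pinhead alone, a comparison in which 31% of genes were called lower. A copy that is detected mainly in 1 group passes such a filter through that group, so the 4 stand for themselves and not for the members as a whole.

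The long copy of brachyury, t.L, had 50.4 and 70.2 CPM with Pinhead (957 and 1021 counts). The control libraries had 0.0603 and 0 CPM, those with Chordin 0 CPM each, and those with both proteins 0.0622 and 0.112 CPM. Outside the Pinhead group t.L thus amounted to 1 count in control, 0 with Chordin and 3 with both, levels that cannot be ordered at this depth. The ratio of Pinhead to control was 1880 with a 95% counting interval of 337 to 74200 (adjusted p = 8.66e-06), and its 1 control count lay in library 1. Against Chordin the Pinhead level was at least 716-fold higher, taking 3 counts over the Chordin group as the floor (adjusted p = 2.76e-07). Pinhead alone exceeded both proteins 668 times in t.L, the counting interval being 228 to 3240 (adjusted p = 4.32e-07). These intervals and floors cover counting error only.

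The short copy, t.S, reached 42.7 and 72 CPM with Pinhead, from 0.542 and 0.786 CPM in control. The Chordin libraries had 0.221 and 0.491 CPM, and the libraries with both proteins 0.996 and 4.13 CPM. The order of the group means was Pinhead, both, control and Chordin. The last 2 were close, with 9 counts each in control library 1 and Chordin library 4. Pinhead raised t.S over control by 6.42 ± 0.55 on the log2 scale (SE; adjusted p = 0.000188), an 85.7-fold rise. Adding Chordin to Pinhead went with a log2 change of -4.44 ± 0.45 (adjusted p = 2.85e-05), 21.8-fold lower, or -3.81 without library 7 and -5.81 without library 8. The difference between control and Chordin was not called (log2 fold change -0.87, 95% interval -3.30 to 1.56, adjusted p = 0.499).

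**Figure D1:**
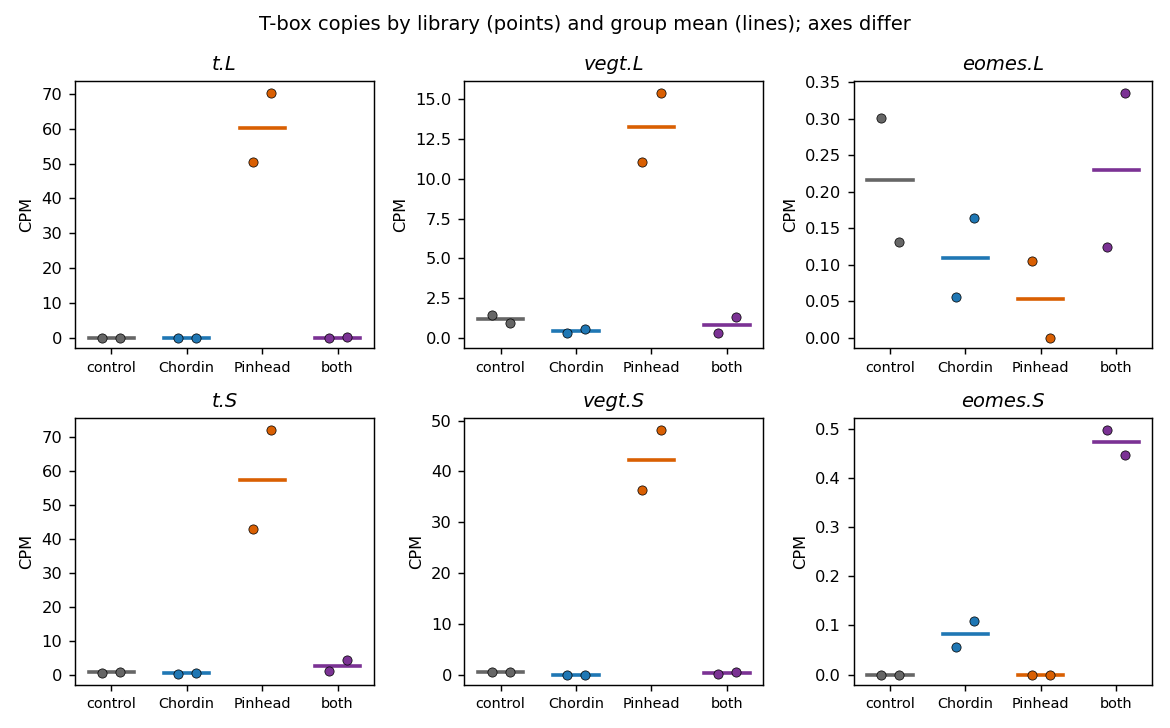
CPM of each T-box copy in the 4 groups; points are libraries, lines are group means, and each panel has its own linear axis. The copies of t and vegt stand at 11.1 to 72 CPM in the 2 Pinhead libraries and at 4.13 CPM or less in the other 6, while both eomes copies stay at 0.498 CPM or less.

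The vegt copies followed the same order at their top and differed below it. The long copy, vegt.L, had 11.1 and 15.4 CPM with Pinhead against 1.45 and 0.917 CPM in the control libraries. The Chordin libraries had 0.277 and 0.545 CPM, and those with both proteins 0.311 and 1.34 CPM. The last 3 groups lay close together, and the libraries with both overlapped those of control and of Chordin. Pinhead raised vegt.L by 3.46 ± 0.44 on the log2 scale (adjusted p = 0.00185), 11-fold. With both, it was 15.5-fold lower than with Pinhead (log2 change -3.95 ± 0.46, adjusted p = 6.98e-05; -3.32 without library 7 and -5.35 without library 8). Chordin against control was not called for vegt.L (-1.51 ± 0.66, adjusted p = 0.0689), although 6 of 15 alternative settings called it lower.

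The short copy, vegt.S, rose with Pinhead to 36.4 and 48.2 CPM from 0.542 and 0.459 CPM in control, an 82.9-fold rise (6.37 ± 0.29 on the log2 scale, adjusted p = 1.89e-05). It was the one t or vegt copy called lower with Chordin alone, in a comparison where 32% of genes were called lower. Its 16 counts in control became 0 with Chordin, at least 6.10-fold lower against the floor of 3 counts (adjusted p = 0.00289). The t.S and vegt.L levels were also lower, without a call (log2 fold change -0.87 and -1.51). The 1 control count of t.L could not show a fall. With both proteins vegt.S had 0.187 and 0.447 CPM, 11 counts in all. That was 128-fold below Pinhead alone (-7.00 ± 0.31, adjusted p = 6.91e-07; -7.74 without library 8). Pinhead against Chordin was called higher for all 4 copies, where 31.2% of genes were called higher, with t.S 157-fold (7.29 ± 0.59; 7.95 without library 4), vegt.L 31.5-fold and vegt.S at least 504-fold.

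Pinhead added to Chordin raised 1 of the same copies over Chordin alone by the test. Here 6.46% of genes were called higher, and of the 4 copies vegt.S was: it went from 0 to 11 counts, at least 3.93-fold higher (adjusted p = 0.0412). That call was lost without any 1 of libraries 1, 2, 3, 4 or 8, with adjusted p from 0.0689 to 0.183, and its adjusted p ran from 0.000941 to 0.304 over all alternatives. The t.S level was 7.21-fold that with Chordin and was not called (2.85 on the log2 scale, 95% interval 1.04 to 4.66, adjusted p = 0.0541). It was called by DESeq2 (adjusted p = 0.0197), without the filter on low counts (1e-13) and without library 7 (3.02e-05), and its adjusted p reached 0.291 among the alternatives. The vegt.L difference was not called (1.03, 95% interval -0.53 to 2.58, adjusted p = 0.406), except without library 7 (1.64, adjusted p = 0.0416), and stood at -0.39 without library 8 (adjusted p up to 0.851 among the alternatives). Against control, explants with both proteins had more t.S (1.98 ± 0.73, adjusted p = 0.0379; 33.3% of genes were called higher), and this was lost without any 1 of libraries 1, 2, 3, 4 or 8. It stood at 0.62 (adjusted p = 0.439) without library 8 and at 2.61 without library 7, and its adjusted p ran from 1.24e-08 to 0.439 over all alternatives. The vegt copies were not called in that comparison, with log2 fold changes of -0.49 (95% interval -1.80 to 0.82) for vegt.L and -0.62 (-1.94 to 0.69) for vegt.S. Without library 8 vegt.L was called lower (-1.88, adjusted p = 0.0205, range over alternatives 0.0205 to 0.916), and without library 7 it stood at 0.15. With run 2 alone vegt.S was called lower (-2.29, adjusted p = 0.0338, range over alternatives 0.0338 to 0.817).

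Whether the effect of Pinhead on the log2 scale differed with and without Chordin was tested as an interaction, for which 11% of genes were called. It was -3.57 for t.S (95% interval -6.60 to -0.54, adjusted p = 0.118) and -2.44 for vegt.L (-4.43 to -0.45, adjusted p = 0.108), so neither was called. Without library 8 both were (-4.96 and -3.86, adjusted p = 0.000817 and 0.0022), and t.S also without library 7 (-2.96, adjusted p = 0.0147). With library 7 or 8 left out, the lone library with both proteins is assumed to vary like those of the other groups, here and wherever a library is left out. Over all alternatives the adjusted p ran from 4.37e-07 to 0.499 for t.S and from 0.00122 to 0.45 for vegt.L. No interaction is given for t.L and vegt.S, which had no counts with Chordin. The pnhd transcripts moved too: pnhd.L was 2.18-fold lower with both than with Pinhead (adjusted p = 0.00473). The mean of pnhd.S was 8.512 CPM with Pinhead and 0.6057 CPM with both. These counts do not separate introduced from endogenous transcripts. The part of pnhd in the fall of the T-box copies was not tested.

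The 2 copies of each gene did not keep a constant proportion. Of the counts on t.L and t.S together, t.L took 54.1% and 49.4% in the Pinhead libraries (Clopper-Pearson 95% intervals 51.8% to 56.5% and 47.2% to 51.5%). With both proteins it took 3.23% (3 of 93 counts, 0.67% to 9.14%), in control 4.55% (1 of 22, 0.115% to 22.8%) and with Chordin 0 of 13 counts, which allows up to 24.7%. Such a share needs no gene length, since each copy is set against itself in another group. In a model with the library as a block over 8539 pairs of copies, the ratio of t.L to t.S differed between Pinhead and control (adjusted p = 0.00397; 7.58% of pairs were called) and between both and Pinhead (adjusted p = 5.56e-08; 38.8% of pairs). The first change was 4.20 ± 0.92 on the log2 scale, 6.85 without library 1 and 3.12 without library 2, where the call was lost (adjusted p = 0.187; 0.000231 to 0.187 over all alternatives). The second was -4.89 ± 0.54, held in each of the 9 alternatives run for this ratio, and was -3.95 without library 8. Between Pinhead and Chordin the t ratio was also called (adjusted p = 0.00159; 39.5% of pairs), but not without library 4 (adjusted p = 0.0895, range over alternatives 0.000235 to 0.0895).

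For vegt the proportion moved the other way. The long copy took 72.7% and 66.7% of the vegt counts in control and 62.5% and 75% with both, but 23.3% and 24.2% with Pinhead. The log2 ratio of vegt.L to vegt.S changed by -2.91 ± 0.47 between Pinhead and control (adjusted p = 0.000174) and by 3.05 ± 0.54 between both and Pinhead (adjusted p = 5.57e-05). Each call was lost without 1 library, the first without library 1 (-2.67, adjusted p = 0.0529, range over alternatives 6.85e-08 to 0.0529) and the second without library 8 (2.40, adjusted p = 0.0958; 5.16e-07 to 0.0958). With Chordin all 15 vegt counts were on the long copy, a difference from control that was called (adjusted p = 0.0214; 42.5% of pairs) but lost without library 3 or 4 (0.062 and 0.186; 0.0158 to 0.186 over all alternatives). Near-identical copies can exchange reads in counting, and how reads with several matches were treated is not given in the sources used here, so levels of single copies are uncertain.

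**Figure D2:**
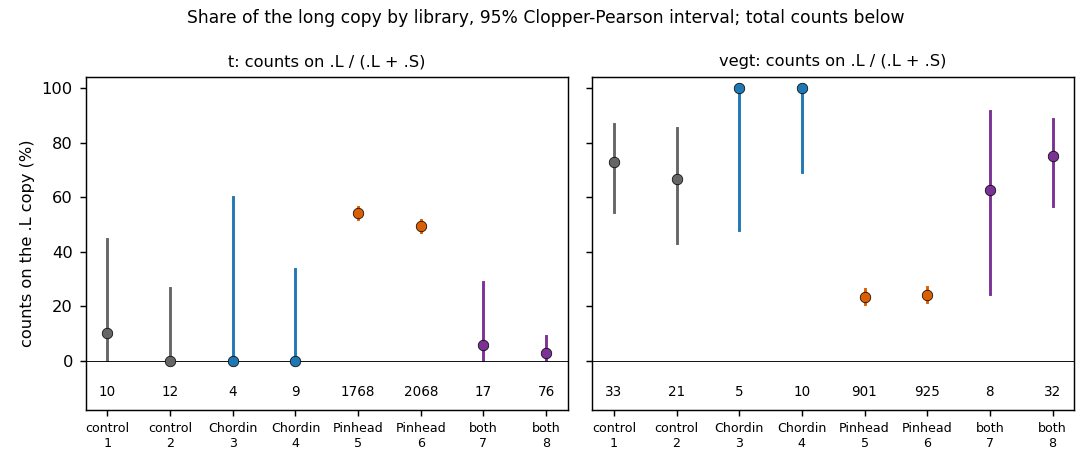
Percentage of the counts of t (left) and vegt (right) that fell on the long copy, per library, with 95% Clopper-Pearson intervals; the total counts of the pair stand under each library. The t.L share is 49.4% to 54.1% with Pinhead and 10% or less elsewhere, whereas the vegt.L share is 23.3% to 24.2% with Pinhead and 62.5% or more elsewhere.

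Neither eomes copy passed the filter on low counts, so their levels were not tested. The copy eomes.L had 8 counts with both proteins, 7 in control, 4 with Chordin and 2 with Pinhead, at most 0.335 CPM in any library. The copy eomes.S had 16 counts with both proteins, 3 with Chordin and 0 in the other groups. Those 16 counts were spread evenly over the libraries with both (8 and 8, or 0.498 and 0.447 CPM), above every other library, the next highest being 0.109 CPM. The eomes.S level with both was 5.72 times that with Chordin (95% counting interval 1.64 to 30.6), and against Pinhead it was at least 5.27-fold higher. Its highest group was therefore not the one in which t and vegt were highest, at levels of under 1 CPM. The pair did enter the test of copy ratios: eomes.L took 7 of 7 eomes counts in control and 8 of 24 (33.3%) with both, a difference that was called (adjusted p = 0.0451; 41.4% of pairs). The call was lost without library 1, 2, 3 or 4 (adjusted p = 0.29, 0.113, 0.0562 and 0.0588) and without the filter on low counts (0.106), and the pair had too few counts to be fitted without library 7 or 8.

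A brachyury-type gene outside the rule, t2.S, was detected in each library with Pinhead, with or without Chordin, and in none of the others. It was singled out after its values were seen. RefSeq names it tbxt.2.S with the synonym Xbra3, and in assembly Xenopus_laevis_v10.1 it lies next to tbxt.L, the RefSeq name of t.L, on chromosome 5L in spite of its suffix. The level of t2.S was 0 in the 4 libraries without Pinhead, 5.795 and 9.83 CPM with Pinhead alone, and 4.23 and 14.6 CPM together with Chordin. It was at least 80.1-fold higher with Pinhead than in control (adjusted p = 0.0089) and at least 118-fold higher with both than with Chordin (adjusted p = 0.00501), against 3 counts over the group. The first call was lost without library 1 or 2 (adjusted p = 0.0721 and 0.0627) and the other without library 3 or 4 (0.0578 and 0.0582), over ranges of 4.9e-43 to 0.0721 and 2.08e-52 to 0.0582. Between both and Pinhead t2.S was not called different, with a log2 fold change of 0.29 and a 95% interval of -0.96 to 1.54. It was -0.85 without library 8 and 0.89 without library 7, where it was called higher (adjusted p = 0.0111; 0.0111 to 0.954 over all alternatives).

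Within a library, t2.S took 5.86% and 6.47% of the counts on t2.S, t.L and t.S with Pinhead (110 of 1878 and 143 of 2211). With both it took 80% (68 of 85, Clopper-Pearson 69.9% to 87.9%) and 77.4% (261 of 337, 72.6% to 81.8%). Set against itself in another group, the share needs no gene length. It was alike in libraries 7 and 8, although their levels were not: library 8 had 3.45 times the t2.S of library 7 (95% counting interval 2.63 to 4.57), 4.15 times the t.S (2.4 to 7.64) and 4.31 times the vegt.L (1.61 to 14.5). The level of pnhd.L differed between them by 1.13 times (1.1 to 1.17).

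**Figure D3:**
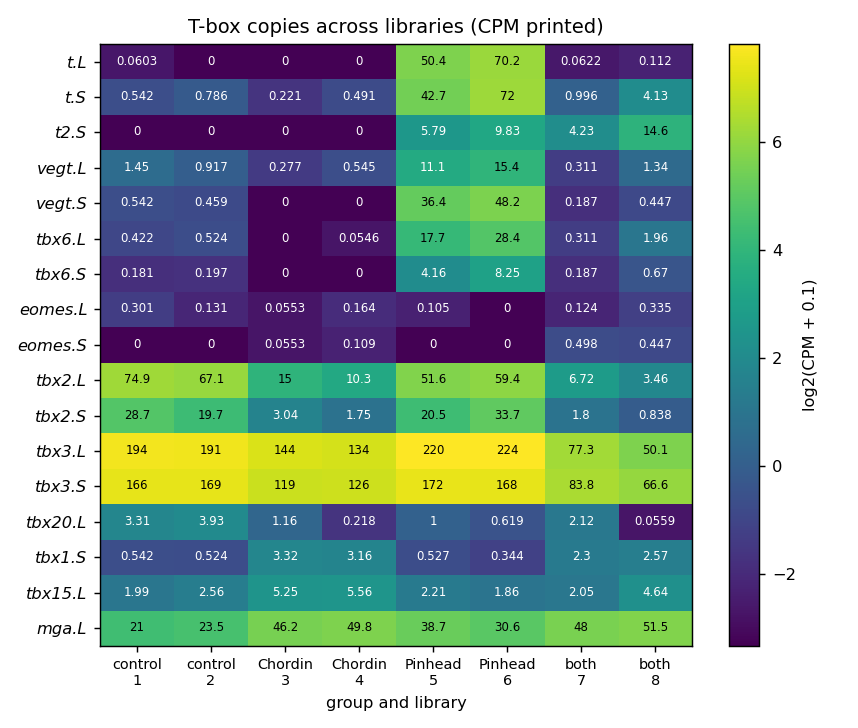
Levels of 17 T-box copies in the 8 libraries, as colour on the scale log2(CPM + 0.1) with the CPM printed in each cell. Copies of t, vegt and tbx6 are brightest in the Pinhead libraries, and t2.S is detected only in those and in the libraries with both. The group means of the tbx2 and tbx3 copies are lowest with both, though the tbx2.S libraries overlap those with Chordin.

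Among the other T-box genes, 26 copies had a row and 16 were tested. With Pinhead 4 rose and 0 fell, the 4 being t2.S, mga.L and both copies of tbx6, a regulator of the paraxial mesoderm that forms somites. Over the 16 tested copies the median log2 fold change was 0.18, against 0 over all genes tested, of which 6.75% were called higher. The rises numbered 1 without library 1 and 2 without library 2. The copy tbx6.L went to 17.7 and 28.45 CPM with Pinhead from 0.422 and 0.524 CPM in the control libraries, a 48-fold rise (5.59 ± 0.57, adjusted p = 0.00056). With both it stood at 0.311 and 1.96 CPM, 19.6-fold below Pinhead (-4.29 ± 0.49, adjusted p = 6.31e-05; -3.58 without library 7 and -6.15 without library 8). The copy tbx6.S rose 31.4-fold with Pinhead (adjusted p = 0.00292), a call lost without library 1 (adjusted p = 0.0547, range over alternatives 1.37e-21 to 0.0547), and was 13.8-fold lower with both than with Pinhead (-3.79 on the log2 scale; -4.96 without library 8). The gene mga.L, which encodes a large partner of Max with a T-box domain, rose 1.56-fold with Pinhead and 2.16-fold with Chordin (adjusted p = 0.0151 and 6.27e-05). Its call with Pinhead was lost without library 1, 2 or 5 (adjusted p = 0.148, 0.0793 and 0.0821; 7.78e-05 to 0.148 over the alternatives).

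Among the same 16 copies 6 fell and 3 rose with Chordin against control, with a median log2 fold change of -0.46. Of all genes 32% and 31.7% were called lower and higher there, so the count does not set the T-box copies apart. The falls numbered 2 to 4 without any 1 of libraries 1 to 6 and 8 without library 7 or 8. The copy tbx2.L, which encodes a repressor, went from 74.9 and 67.1 CPM in control to 15 and 10.3 CPM in the Chordin libraries and to 6.72 and 3.46 CPM in those with both, while it stood at 51.6 and 59.4 CPM with Pinhead. Its fall with Chordin was 5.61-fold (adjusted p = 1.91e-05) and that of tbx2.S 10.1-fold (adjusted p = 4.58e-05). The related repressor tbx3.L was 2.18-fold lower with both than with Chordin (adjusted p = 0.0031). The copy tbx1.S, of a gene of the pharyngeal region, rose 6-fold with Chordin (adjusted p = 0.00013), from 0.5425 and 0.524 to 3.32 and 3.16 CPM.

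Genes known as targets or partners of brachyury went both ways between explants with both proteins and those with Pinhead alone. Of 26 copies on this list 22 were tested, and 12 rose and 0 fell with Pinhead over control, with a median log2 fold change of 4.13 against 0 over all genes (3.02 with groups without counts set to 3 counts). Of all genes 6.75% were called higher with Pinhead over control. With both against Pinhead, 8 of the 22 were higher and 11 lower (30.7% of all genes were called higher and 31% lower). The lower ones included msgn1.L, a regulator of presomitic mesoderm, at 12.75 and 12.99 CPM in the Pinhead libraries but 0 and 0.2235 CPM in those with both (103-fold, adjusted p = 1.53e-05). They also included the protocadherin gene pcdh8.2.L (23.4-fold lower, adjusted p = 1.74e-05) and wnt8a.L, which encodes a ventral and posterior Wnt ligand (10-fold lower, adjusted p = 3.47e-05). The higher ones included the notochord homeobox genes not.L and not.S, 14.7-fold and 121-fold above Pinhead alone (adjusted p = 5.61e-06 and 1.17e-06), and fgf8.L, the gene of an FGF ligand, 4.31-fold (adjusted p = 3.15e-05). The copies of not and foxa4 are also on the notochord list described further on, and they make up 4 of the 8 higher ones. The Wnt ligand gene wnt11b.L, a brachyury target in gastrula movements, was not called with Pinhead over control (1.36-fold, adjusted p = 0.244). Chordin lowered it 15.1-fold against control (adjusted p = 5.79e-06), and it was 12.3-fold higher with both than with Chordin (adjusted p = 0.000205).

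Genes of the posterior growth zone, the tail-forming region where brachyury stays on in the neurula, were mostly highest with Pinhead alone. Of 25 copies 21 were tested, and 18 rose and 0 fell with Pinhead over control (median log2 fold change 4.99), where 6.75% of all genes were called higher. With both against Pinhead 3 were higher and 18 lower (median -3.93, against 0.03 over all genes). Of all genes 30.7% were called higher and 31% lower there. By group mean, the copies above Pinhead alone included the hairy-type genes hes7.L and hes7.1.S. The mean of hes7.L was 0.1397 CPM with Pinhead but 62.32 CPM with both, where it was the highest of the 25 copies. That of hes7.1.S was 0 and 3.623 CPM in the same groups. The list shares tbx6, msgn1 and wnt3a with other lists used here, so the counts are partly of the same copies. The homeobox gene evx1.L was at 17.9 and 21.4 CPM in the Pinhead libraries and at 0 and 0.335 CPM in those with both, 107-fold lower (adjusted p = 3.81e-06). The hairy-type gene esr-5.L was 28.2-fold lower (adjusted p = 4.44e-06). The retinoic acid hydroxylase gene cyp26a1.S was 2.39-fold lower (adjusted p = 0.00194), and remained 2.59-fold above Chordin alone (adjusted p = 0.014). In both against Chordin 6.46% of all genes were called higher. Added to Chordin, Pinhead raised 11 of the 21, and this number was 2 and 1 without libraries 3 and 4.

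The 18 notochord copies, 14 of which rose with both over Chordin (8 without library 3 or 4) and 1 of which fell (4.25% of all genes were called lower there), were on the other side. Of all genes 6.46% were called higher with both over Chordin. With both against Pinhead 16 of the 18 were higher and 0 lower (30.7% and 31% of all genes). With Pinhead against control edgeR called 0 in either direction, with 2 at an unadjusted p under 0.05 and 1 called by DESeq2. Of all genes 6.75% were called higher and 3.92% lower there, so the 0 calls do not set the notochord copies apart. Their summed level was 107.8 and 229.7 CPM in libraries 7 and 8, with both proteins, and 7.27 to 28.04 CPM in the other 6. The explants with the most notochord transcripts were therefore those in which t2.S took most of the brachyury-type counts, while t.L had 3 counts and t.S had 90. The level of t2.S itself averaged 9.41 CPM there and 7.81 CPM with Pinhead alone, a difference that was not called. Of 20 skeletal muscle copies 16 were tested, and their sums were 55.6 and 109.8 CPM in libraries 7 and 8 and 10.7 to 28.9 CPM in the other 6. The part that the cell types of these lists have in the T-box levels was not tested.

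**Figure D4:**
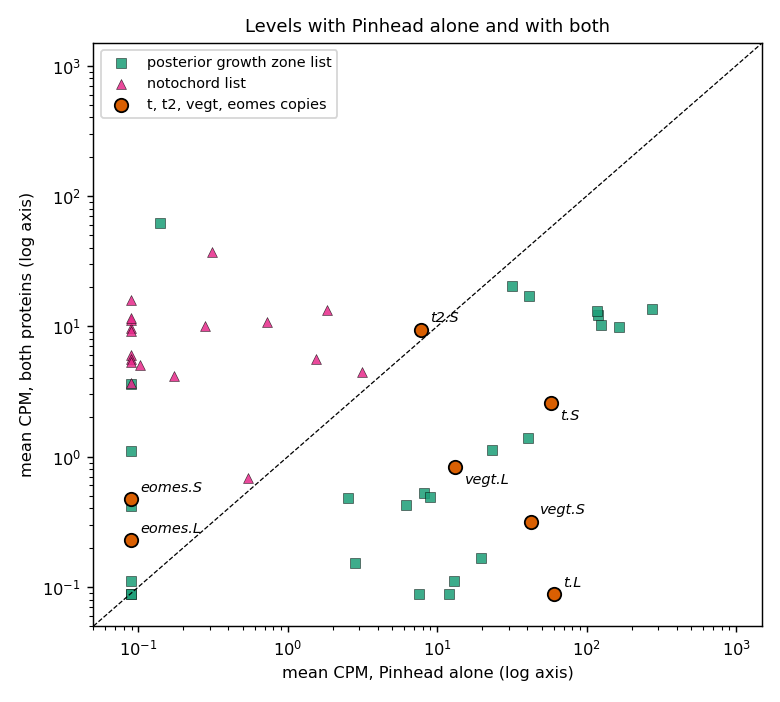
Mean CPM with Pinhead alone against mean CPM with both proteins, on log axes, for the posterior growth zone list, the notochord list and the t, t2, vegt and eomes copies; means under 3 counts over the group are drawn at that floor, and the dashed line marks equal levels. Of 25 posterior copies 18 are higher with Pinhead, 5 with both and 2 lie at the floor in both groups, all 18 notochord copies are higher with both, the t and vegt copies lie with the posterior genes and t2.S lies near the line.

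Pathways that switch brachyury on differed in which groups carried their transcripts. Of 34 tested genes of FGF and ERK signalling 21 rose and 2 fell with Pinhead over control (median log2 fold change 1.34). Of all genes 6.75% were called higher and 3.92% lower there. With Chordin over control 27 rose and 3 fell, where the shares over all genes were 31.7% and 32%. The rises with Pinhead numbered 12 to 15 without any 1 of libraries 1 to 6. With both against Pinhead 19 of the 34 were higher and 2 lower (30.7% and 31% of all genes). The feedback gene flrt3.L, which encodes a membrane protein that aids FGF signalling in the frog, stood at 3.38 and 3.02 CPM in control and at 15.3 and 15.6 CPM with Chordin. With Pinhead alone it had 34.3 and 38.7 CPM, and the explants with both proteins had 35.3 and 37.4 CPM. Of 26 tested Wnt genes 18 rose and 0 fell with Pinhead, with a median of 2.38. Among them was the target gene sp5l.L at 35.9 and 39.45 CPM from 0.784 and 0.852 CPM in control (45.7-fold, adjusted p = 6.77e-06). In libraries 7 and 8 sp5l.L reached 44.37 and 60.12 CPM. Chordin over control raised 9 of the 26 and lowered 5. Between both and Pinhead 8 were higher and 10 lower (median -0.19, against 0.03 over all genes). Of all genes 30.7% were called higher and 31% lower there, so these counts do not set the Wnt list apart. The Wnt copies summed to 393.6 and 438.7 CPM in libraries 5 and 6, and to 412.7 and 448.3 CPM in libraries 7 and 8. The summed level was thus similar with Pinhead alone and with both, while single copies went either way. The ligand gene wnt8a.L, for example, had a mean of 17.49 CPM with Pinhead and 1.728 CPM with both. The FGF list shares fgf4 and fgf8 with the list of brachyury targets, and the Wnt list shares wnt8a and wnt11b with it. Some copies are therefore counted on both sides. The part of these pathways in the levels of t and vegt was not tested.

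Nodal and Activin signalling genes were mostly low. Of 46 copies with a row 22 were tested, and 1 rose and 1 fell with Pinhead over control, with a median of 0.12. Of all genes 6.75% were called higher and 3.92% lower there, so these counts do not set the list apart. The one that rose was gdf3.S, of a ligand gene, at 18.02 and 19.45 CPM with Pinhead, 0 in control and Chordin libraries, and 0 and 0.726 CPM with both (48.3-fold lower than with Pinhead, adjusted p = 0.000131). The one that fell was foxh1.L, of a transcription factor that carries Nodal signals to DNA, which went from 13.3 and 12.8 CPM in control to 5.95 and 5.91 CPM with Pinhead (2.2-fold, adjusted p = 0.00322). With both over Chordin 6 of the 22 rose and 0 fell (2 without library 3 or 4, 10 without library 7), among them foxh1.L and the Nodal co-receptor gene tdgf1.3.L, which reached 4.54 and 5.31 CPM from 0.608 and 0.327 CPM. Of all genes 6.46% were called higher and 4.25% lower with both over Chordin. Of 15 tested endoderm copies, a tissue that VegT specifies, 1 rose and 3 fell with Pinhead over control. Of all genes 6.75% were called higher and 3.92% lower there, so the 1 rise does not set the endoderm list apart. Leaving out 1 library gave 0 to 2 rises and 0 to 3 falls, and 0 of either without library 1 or 2.

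The genes whose profile over the 8 libraries was most like a member's were ranked by Pearson's r of log2 CPM among 16090 genes, as a description. The points share 2 high libraries, those with Pinhead, on which r mainly rests. The 4 tested members, the t and vegt copies, correlated among themselves at 0.932 to 0.962, and the eomes copies were not included. For t.L the nearest were esr-5.S (r = 0.988), the biliverdin reductase gene blvra.L, both copies of the RNA-binding protein gene rbm20, and msgn1.S (r = 0.979). For t.S they were raph1.S, which encodes an actin regulator of the cell edge (r = 0.988), esr-5.L, the methionine adenosyltransferase gene mat1a.S, cntnap5.S, and the secreted protease gene adamts1.L (r = 0.984). For vegt.L they were the hairy-type gene hes7.2.L (r = 0.980), greb1.S, pnkd.L, evx1.L and the aminopeptidase gene anpep.S (r = 0.965). For vegt.S they were cap2.L, of an actin-binding protein (r = 0.993), the fibronectin gene fn1.L, pnkd.L, the Wnt feedback ubiquitin ligase gene rnf43.L, and coro7.S (r = 0.980). The size of response differed among them: rbm20.L went from 2.41 and 3.54 CPM in control to 54.8 and 51 CPM with Pinhead, 17.8-fold, whereas fn1.L went from 65 and 66.4 to 109 and 116 CPM, 1.71-fold.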

How the data were processed

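The authors deposited raw counts per gene, with 2 columns for each of the 8 libraries. Per the labels' protocols RNA came from RNeasy columns and was read as paired ends of 150 bp, and the submitters' processing notes name HISAT2. The counting tool, genome build and annotation: not given in the sources used here. Per the labels both columns belong to 1 library, so they were summed, their mean chi-square per gene being 1.39 to 1.53 against 3.19 to 12.8 between libraries of a group. A single line was not analysed here. With edgeR 4.0.16 in R 4.3.3, genes were kept by filterByExpr (minimum 10 counts, 15 in total), counts were scaled by TMM, and all 8 libraries entered the same quasi-likelihood fit by group, with 4 residual degrees of freedom. It gave 7 comparisons, the 6 between pairs of groups and the interaction. Tests were two-sided, with Benjamini-Hochberg adjustment over the genes of a comparison and calls under 0.05. Comparisons with a common group share its libraries. Copy ratios were fitted over pairs with 10 counts in at least 2 libraries. Fitted folds are given where each group had more than 3 counts. Otherwise the fold is a bound against 3 counts over the group, or a ratio with a counting interval. Members and the 11 gene lists were chosen with earlier results of these data known. The naming rule took all members, other T-box copies at 1 CPM or more in some group, up to 4 copies per list with the smallest adjusted p in Pinhead against control and in both against Chordin, chrd and pnhd, and the 5 genes most like each tested member. The text names only some of these, and gives the endoderm, epidermis, neural and muscle lists as counts or sums. Alternatives used RLE or no scaling, no filter, DESeq2 1.42.0, the compared groups alone, single runs, and each library left out. Copy ratios were refitted only without the filter and with a library left out, in 9 settings for t and vegt and 7 for eomes. The code was tested on simulated data. Figures were drawn with matplotlib 3.10.9.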

Additional observations from a re-analysis of the deposited data

Results flagged for a closer look

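Of 80 genes (the members and those the naming rule took from all but the endoderm, epidermis, neural and muscle lists), 25 had a Pinhead effect that differed with and without Chordin by the interaction test (adjusted p under 0.05, more than 3 counts in each group), 8 with a higher and 17 with a lower log2 effect in the presence of Chordin. Many of the 80 were taken for small p-values in the pair of effects whose difference is tested here, and others for a profile like a member's. The number called is therefore a description and is not set against the share over all genes. The values are log2 effects of Pinhead with Chordin minus those without. Among T-box genes they were -1.33 for tbx3.L and -0.72 for tbx3.S. Among genes most like a t or vegt copy they were -4.19 for esr-5.S, -3.44 for rbm20.S, -3.06 for rbm20.L, -2.85 for blvra.L and -1.28 for pnkd.L. Among the other posterior, FGF and Wnt genes they were -3.18 for cyp26a1.S, -3.48 for flrt3.S, -3.13 for fgf8.L, -2.65 for axin2.L, -2.39 for sp5l.L, -2.27 for flrt3.L, -1.88 for etv1.S, -1.73 for etv1.L, -1.10 for notum.S and 2.02 for fgfr4.S. Among notochord, target and Nodal genes they were 2.43 for sox9.S, 3.12 for col2a1.L, 3.17 for wnt11b.L, 3.36 for foxh1.L, 3.75 for tdgf1.3.L, 4.82 for not.L and 5.21 for not.S. The copy pnhd.L had -2.71.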

How the results depend on the processing

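The rise of t.L, t.S, vegt.L and vegt.S with Pinhead over control and over Chordin, and their lower level with both than with Pinhead, kept direction and call in all 15 alternatives run, 180 values for 12 results. Scaling by total counts put the median log2 fold change of all genes at 0.123 for Chordin against control and 0.175 for both against control. It was 0.146 for both against Pinhead and -0.102 for Pinhead against Chordin. With TMM these medians were 0, 0.032, 0.026 and 0. Without the filter on low counts, the eomes copy ratio of both against control (-5.97) lost its call, vegt.L with Chordin (-1.54), t.S with both over Chordin (2.85) and the t.S and vegt.L interactions (-3.57 and -2.44) became called, and genes called numbered 3868 for Pinhead against control, 4128 for both against Chordin and 4495 for the interaction, against 2469, 2476 and 2536. DESeq2 called the same 4 (-1.53, 2.83, -3.61 and -2.47). With run 1 alone, vegt.L with Chordin was called (-2.15), t.S with both over control (1.46) and vegt.S with both over Chordin (5.20) were not, vegt.S with both over control turned to 0.47, and 1685 interactions were called. With run 2 alone, vegt.L with both over control turned to 0.17, vegt.S was called there (-2.29), and vegt.S over Chordin was not (3.16). With the compared groups alone, vegt.L with Chordin was called (-1.52), t.S with both over control was not (1.92), and 3818 genes were called for Pinhead against control. The cause of these moves was not tested.

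Leaving out 1 library at a time gave log2 ranges, for both over control, of 0.62 to 2.61 for t.S and -1.88 to 0.15 for vegt.L. For both over Chordin they were 1.47 to 3.5 for t.S, -0.39 to 1.64 for vegt.L and 4.73 to 5.93 for vegt.S, for vegt.L with Chordin -2.05 to -1.09, and for the interactions -4.96 to -2.93 (t.S) and -3.86 to -1.82 (vegt.L). Copy ratios ranged over 3.12 to 6.85 (Pinhead against control) and 5.06 to 6.18 (Pinhead against Chordin) for t. For vegt they ranged over -3.08 to -2.67 for Pinhead against control, 4.04 to 5 for Chordin against control, -0.52 to 0.38 for both against control and 2.40 to 3.25 for both against Pinhead, and for eomes over -6.43 to -5.25 for both against control. The range was -0.85 to 0.89 for t2.S with both over Pinhead, -0.56 to 2.02 for tbx6.L with both over control and -0.02 to 0.09 for mga.L with both over Chordin, all genes outside the rule whose alternatives were chosen after seeing the data. Genes called ranged from 560 to 4488 for Pinhead against control, 648 to 3891 for both against Chordin and 527 to 4405 for the interaction. No paired analysis was possible because the library numbers 1 to 8 are not shared between groups. With at most 16 counts per group, neither eomes copy passed the filter for a test of its level. The eomes copy ratio could not be fitted without library 7 or 8.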
